A study of Homo sapiens with 15 samples.

Results

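The integrin and laminin subunits are the genes whose symbols are ITGA, ITGB, LAMA, LAMB or LAMC with a number and at most 1 letter, with ITGAV, ITGAL, ITGAM, ITGAX, ITGAE and ITGAD. The rule gave 38 members of 21493 genes in the count files: 18 integrin α, 8 integrin β and 12 laminin chains. It used only names, not measured values.

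Integrins are cell-surface receptors made of an α and a β subunit that hold cells to the extracellular matrix and signal in both directions across the membrane. Laminins are secreted proteins made of an α, a β and a γ chain, and they form the sheet of the basement membrane on which epithelial and endocrine cells sit. Which α chain pairs with which β chain sets the ligand: some integrins bind collagen, some bind laminin, and some bind the RGD motif of fibronectin and vitronectin. In the adrenal cortex, cords of steroid-making cells lie against a basement membrane that holds laminin and collagen IV.

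The cells were NCI-H295R, a steroid-making line from a human adrenocortical carcinoma, and their RNA was sequenced. In 3 libraries the cells overexpressed ΔNFATC4, a constitutively active NFATc4 that lacks the N-terminal domain, and in 4 libraries, called mock, they had received the empty plasmid. RNA of both was taken 3 days after electroporation, so the plasmid was transient. A further 4 libraries are labelled NFATC4-KO (numbers 1, 2, 3 and 5), from single-cell clones made with CRISPR guides against NFATC4, and 4 are labelled control (numbers 1 to 4), from cells transfected in parallel with empty plasmids. All groups share the parental line. Which clone gave which library is not given in the sources used here, nor whether the libraries came from separate cultures, so p values measure the spread between libraries, which may be technical.

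Depth ran from 18.8 to 28.2 M counts per library, and a count of 0 allows up to 0.108 to 0.158 CPM (counts scaled by TMM factors to a common library size), for counting error only. NFATC4 was at 330, 359 and 342 CPM in ΔNFATC4 libraries and at 87.5 to 106 CPM in mock libraries, and reads from the plasmid count towards it. It was at 114, 109.9, 44.8 and 54.0 CPM in control numbers 1, 2, 3 and 4, and at 92.6, 85.4, 57.5 and 53.6 CPM in NFATC4-KO numbers 1, 2, 3 and 5. NFATC4 RNA separated numbers 1 and 2 from numbers 3 to 5 and did not separate the labels. A CRISPR deletion or insertion may abolish the protein while the RNA stays, and the immunoblot with which the study examined NFATC4 protein is not used here, so the RNA does not settle the labels. The groups are called libraries labelled control and labelled NFATC4-KO. All 7 adrenocortical markers examined were at 1 CPM or more in every library. The 4 endothelial markers stayed under 1 CPM in every library, and 4 of 5 leukocyte markers did. The sum of the leukocyte markers was 1.62 to 2.06 CPM in ΔNFATC4 and 0.800 to 0.954 CPM in mock cells, of which the macrophage and lysosome gene CD68 held 1.42 and 0.389 CPM on average. The leukocyte markers PTPRC, CD3E and LYZ were each under 0.1 CPM on average in both groups.

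The promoters of 5 members on which the results turn are given first: LAMA3, LAMB3 and ITGB5, whose RNA rose in ΔNFATC4 cells and stood far apart within the other 8 libraries, LAMA2, which fell, and ITGA1, the marker of the family. RefSeq on GRCh38.p14 gave a window of 250 bases before to 50 bases after the start for 26 of the 38 members. The core of NFAT sites, GGAAA, and the AP-1 motif TGANTCA were searched on both strands, and capitals mark matches. These windows are LAMA3 at chr18:23872770-23873069 (+), LAMB3 at chr1:209652376-209652675 (-), ITGB5 at chr3:124901369-124901668 (-), LAMA2 at chr6:128882888-128883187 (+) and ITGA1 at chr5:52787666-52787965 (+).
LAMA3: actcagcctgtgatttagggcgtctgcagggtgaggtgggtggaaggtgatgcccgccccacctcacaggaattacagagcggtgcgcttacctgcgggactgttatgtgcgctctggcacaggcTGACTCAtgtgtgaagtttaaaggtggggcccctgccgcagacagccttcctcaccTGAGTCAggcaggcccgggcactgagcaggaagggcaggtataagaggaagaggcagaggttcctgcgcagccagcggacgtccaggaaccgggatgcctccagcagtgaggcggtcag
LAMB3: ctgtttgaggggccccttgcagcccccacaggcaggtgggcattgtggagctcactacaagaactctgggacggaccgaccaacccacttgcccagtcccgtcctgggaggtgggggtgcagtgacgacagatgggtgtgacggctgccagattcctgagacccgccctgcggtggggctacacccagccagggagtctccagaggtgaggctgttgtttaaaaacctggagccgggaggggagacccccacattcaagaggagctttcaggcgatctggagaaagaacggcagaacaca
ITGB5: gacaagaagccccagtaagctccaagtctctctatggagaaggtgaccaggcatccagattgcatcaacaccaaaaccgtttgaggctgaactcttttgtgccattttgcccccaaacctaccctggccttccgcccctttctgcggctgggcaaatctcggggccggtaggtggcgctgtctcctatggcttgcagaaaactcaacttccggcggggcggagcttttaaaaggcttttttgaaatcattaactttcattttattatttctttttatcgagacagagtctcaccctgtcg
LAMA2: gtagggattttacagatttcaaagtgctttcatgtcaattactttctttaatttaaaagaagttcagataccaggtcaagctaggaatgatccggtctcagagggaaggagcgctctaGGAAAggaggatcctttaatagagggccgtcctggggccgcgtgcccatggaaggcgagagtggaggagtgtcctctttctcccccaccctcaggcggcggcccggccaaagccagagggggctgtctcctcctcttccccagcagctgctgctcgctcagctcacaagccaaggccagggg
ITGA1: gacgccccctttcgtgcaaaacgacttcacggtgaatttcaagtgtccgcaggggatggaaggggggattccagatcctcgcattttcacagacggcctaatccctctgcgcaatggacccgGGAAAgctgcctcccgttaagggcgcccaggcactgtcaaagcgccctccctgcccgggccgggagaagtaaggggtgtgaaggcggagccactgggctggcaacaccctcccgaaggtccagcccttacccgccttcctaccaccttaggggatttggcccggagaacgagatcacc
GGAAA stood once in the windows of LAMA2 and ITGA1 and in none of the 3 others. TGANTCA stood at 2 places in the LAMA3 window and at 1 in that of ITGA5, and in no other of the 26 members. Of all 27305 promoters, 61.4% held GGAAA and 7.76% held TGANTCA. Among the members, 12 of 26 windows held GGAAA: 6 of 9 that rose in ΔNFATC4 cells, the 1 that fell, 3 of 12 that were tested and not called, and 2 of 4 not tested. The LAMA3 window lies 183567 bases inside the gene as GENCODE draws it, at the start of a shorter form, and the counts per gene do not tell the forms apart. A match is a description of the letters only, and binding was not measured.

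Mock cells held RNA for many but not all subunits. Of the 38 members, 22 were at 1 CPM or more in every library of the series and 11 never reached 1 CPM. Per kilobase of annotated exon, the highest level in mock cells was that of ITGA7, a laminin-binding α subunit best known from muscle, with 70.0 ± 3.58 CPM per kilobase (SD, n = 4). ITGA9, which binds tenascin and osteopontin, followed with 51.6 ± 5.41, LAMC1, the γ chain of most laminins, with 45.9 ± 4.86, and LAMB2 with 32.2 ± 3.66 CPM per kilobase (SD, n = 4). ITGA9 and LAMC1 overlapped in their ranges, as did LAMB2 and the collagen receptor ITGA1 (31.7 ± 2.25 CPM per kilobase).

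The most abundant β subunit was ITGB1, the common partner of most α subunits here, with 20.9 ± 1.89 CPM per kilobase in mock cells (SD, n = 4). ITGB5, a partner of ITGAV, followed at 2.51 ± 0.184, and the other β subunits were each under 0.2 CPM per kilobase. Among laminin α chains LAMA2 led with 11.6 ± 1.03 CPM per kilobase, above LAMA5 with 1.43 ± 0.247 and LAMA3 with 0.169 ± 0.0191. With the length of the longest transcript in place of all exons, ITGA7 stayed first and LAMB1 moved from place 6 to place 2, so the order below ITGA7 depends on the length used.

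**Figure D1:**
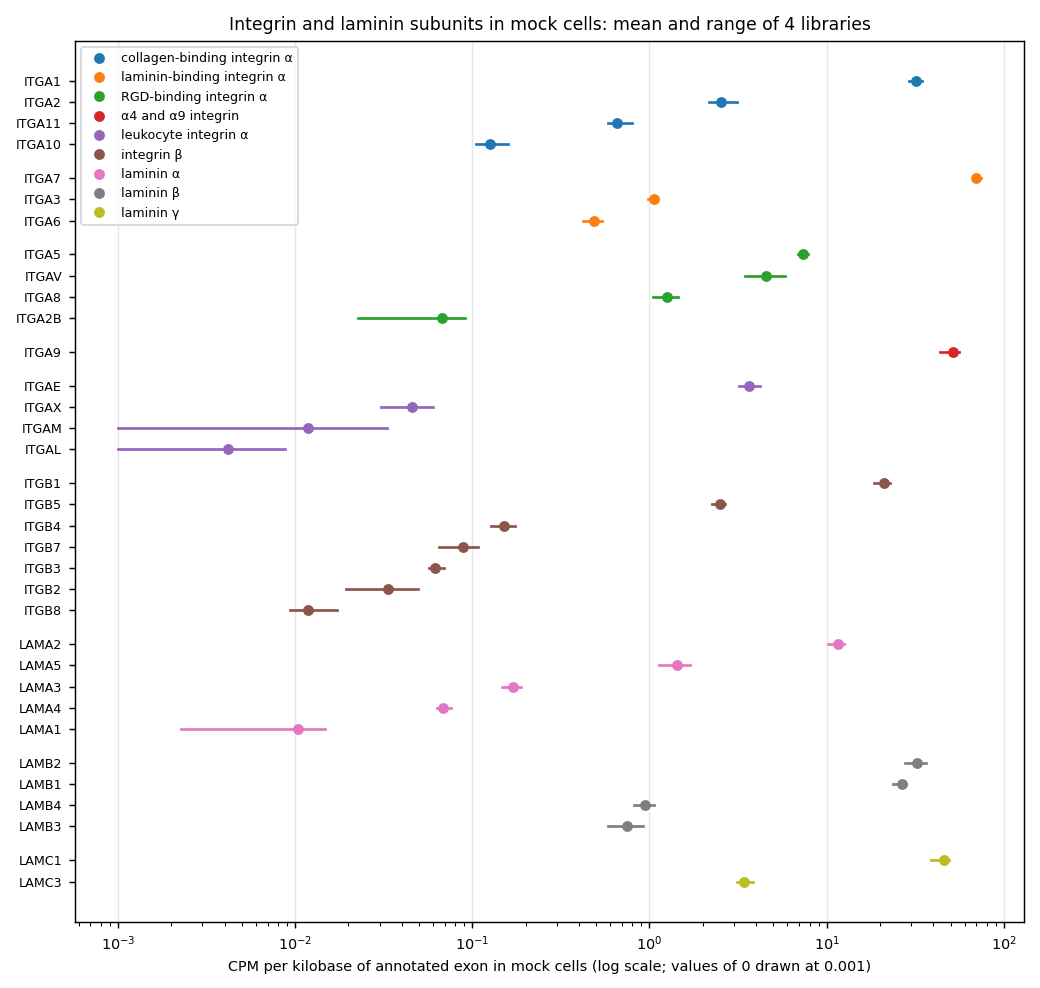
Level in mock cells of the members with more than 3 counts in some library, in CPM per kilobase of annotated exon (log scale), grouped by role, with the mean of 4 libraries as a point and the range as a line. ITGA7 lies highest at 70.0, ITGA1 leads the collagen receptors, ITGB1 the β subunits and LAMC1 the laminin chains, while the leukocyte subunits other than ITGAE lie under 0.1.

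The leukocyte integrin α subunits, with an exception given below, were near the limit of detection, as were a few other members. ITGA4, ITGB6 and ITGAD had at most 3 counts in every library. ITGAL, ITGAM, ITGAX and ITGB2, the subunits of leukocyte integrins, and LAMA1 stayed under 1 CPM throughout, as did ITGA2B of the platelet fibrinogen receptor and ITGB7. ITGAE, the α subunit of an integrin of epithelial T cells that binds E-cadherin, was the exception, at 27.7, 23.7, 23.02 and 21.3 CPM in the mock libraries and 19.9 to 23.8 CPM in ΔNFATC4 libraries. Of its exon bases, 6.5% are shared with HASPIN on the opposite strand.

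ΔNFATC4 cells were compared with mock cells, which asks what active NFATc4 changes. Of the 38 members 28 had enough counts to be tested. Against mock cells, 11 of the 28 rose and 1 fell at a Benjamini-Hochberg adjusted p under 0.05 over all 14094 genes (edgeR quasi-likelihood test of the 7 libraries). Over all genes tested, 7.69% rose and 6.10% fell. The members that rose were the laminin chains LAMA3, LAMB3 and LAMB4 and the integrin subunits ITGB5, ITGA10, ITGA2, ITGA1, ITGA5, ITGA3, ITGA9 and ITGA2B, and LAMA2 fell. Below, SE is the standard error of a log2 fold change. The log2 fold change was over 0 for 20 of the 28, with a median of 0.28, and the median over all genes tested was −0.00. In bulk RNA, more cells that express a gene and more RNA per cell cannot be told apart.

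Past a fold change over 2 as well, 5 members rose (LAMA3, ITGA2B, LAMB3, ITGB5 and ITGA10) and 0 fell, where over all genes 2.18% rose and 0.149% fell by these cutoffs. Of the 28 tested members, 14 lay higher and 1 lower in ΔNFATC4 than in mock libraries without overlap, against 12.4% and 11.9% of all genes tested. The untested ITGAM also lay higher without overlap. Of the integrins 8 of 18 tested rose and 0 fell (median log2 fold change 0.32), and of the laminins 3 of 10 rose and 1 fell (median −0.04).

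These calls hold for the spread within the 7 libraries compared. In a fit of all 15 libraries with 4 group means, 4 members rose (ITGA1, ITGA2, ITGA10 and LAMB4) and 0 fell, with 2.27% and 1.42% of all genes. In that fit ITGB5 had an adjusted p of 0.396, LAMB3 of 0.524, LAMA3 of 0.0634, ITGA5 of 0.203 and LAMA2 of 0.273 from edgeR at about the same fold changes. With 2 means, by number, for each of the labels control and NFATC4-KO, the 15-library fit had 11 higher and 2 lower.

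**Figure D2:**
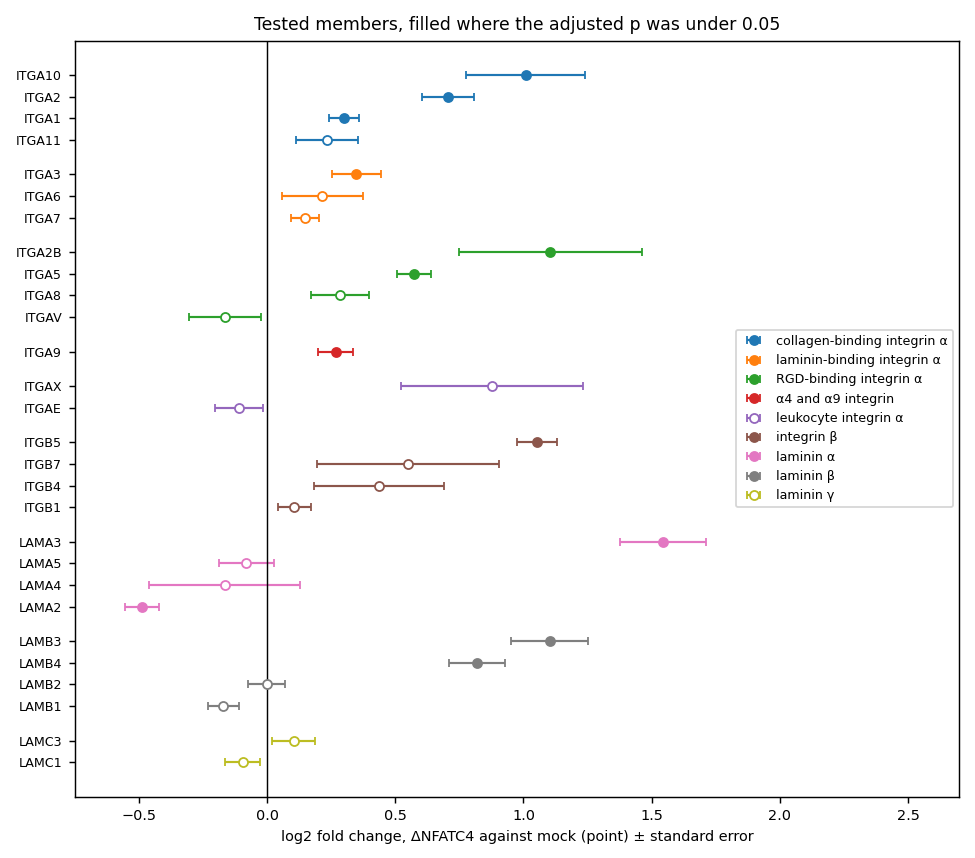
Log2 fold change of ΔNFATC4 against mock cells for the 28 tested members (points) with the standard error (bars), grouped by role and filled where the adjusted p was under 0.05. Of the filled points 11 lie to the right of 0, LAMA3 farthest at 1.54, and only LAMA2 lies to the left at −0.49.

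Among the laminin α chains, LAMA3 rose and LAMA2 fell. LAMA3, the α chain of laminin-332 that anchors epithelia to the basement membrane, lies on chromosome 18 from 23689453 to 23956222 (plus strand). It was at 5.91, 9.36 and 6.27 CPM in the ΔNFATC4 libraries and at 2.34, 2.63, 2.12 and 2.73 CPM in the mock libraries. No ΔNFATC4 library overlapped the mock libraries, and ΔNFATC4 replicate 2 was the highest. The log2 fold change was 1.54 (SE 0.17, adjusted p = 1.97e-06 from edgeR).

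LAMA2, the α chain of the laminin of muscle and nerve basement membranes, lies on chromosome 6 from 128883138 to 129516566 (plus strand). It was at 212, 228 and 213 CPM in ΔNFATC4 and at 269.8, 332, 320.3 and 303 CPM in mock libraries. All ΔNFATC4 libraries lay below all mock libraries. The log2 fold change was −0.49 (SE 0.07, adjusted p = 2.81e-05 from edgeR). LAMA5 and LAMA4 had log2 fold changes of −0.08 and −0.16 and were not called.

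Of the 4 laminin β chains LAMB3 and LAMB4 rose. LAMB3, the β chain of laminin-332, lies on chromosome 1 from 209614870 to 209652425 (minus strand). It was at 6.64, 7.81 and 7.59 CPM in ΔNFATC4 and at 2.86, 3.92, 4.28 and 2.73 CPM in mock libraries. The groups lay apart, and the log2 fold change was 1.10 (SE 0.15, adjusted p = 2.94e-05 from edgeR).

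LAMB4, a β chain with no well-described trimer, lies on chromosome 7 from 108023548 to 108130361 (minus strand), next to LAMB1. It was at 10.8, 12.4 and 11.7 CPM in ΔNFATC4 and at 6.64, 6.77, 7.44 and 5.71 CPM in mock libraries. The groups did not overlap (log2 fold change 0.82, SE 0.11, adjusted p = 2.22e-05 from edgeR). Its neighbour LAMB1, the β chain of laminin-111 and laminin-211, was at 429, 454 and 437 CPM in ΔNFATC4 and at 442, 511, 514 and 519 CPM in mock libraries. The groups overlapped through mock replicate 1, and LAMB1 was not called (log2 fold change −0.17, adjusted p = 0.0672 from edgeR).

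LAMB2, the other common β chain, LAMC1 and LAMC3 did not pass the test. LAMB2 was at 213, 229 and 218 CPM in ΔNFATC4 and at 190, 216, 249.7 and 228 CPM in mock libraries, a log2 fold change of −0.00. LAMC1 was at 358, 368 and 362 CPM in ΔNFATC4 and at 327, 410.1, 414 and 400.2 CPM in mock libraries, where replicate 1 stood below the others. Without mock replicate 1, LAMB1 and LAMC1 were called lower beside LAMA2, which makes 3 lower members. LAMC3 had a log2 fold change of 0.10.

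Of the integrin β subunits ITGB5 rose. It pairs with αv as a vitronectin receptor and lies on chromosome 3 from 124761948 to 124901418 (minus strand). ITGB5 was at 33.8, 34.6 and 33.5 CPM in ΔNFATC4 and at 17.4, 14.7, 16.7 and 16.7 CPM in mock libraries. The groups lay far apart with little spread within either. The log2 fold change was 1.05 (SE 0.08, adjusted p = 8.48e-09 from edgeR). Its partner ITGAV was at 77.0, 77.1 and 81.1 CPM in ΔNFATC4 and at 66.9, 112, 93.4 and 79.8 CPM in mock libraries, which overlapped, with a log2 fold change of −0.16.

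ITGB1 was at 332, 319 and 331 CPM in ΔNFATC4 and at 268, 330.9, 319.8 and 300.3 CPM in mock libraries. The groups overlapped, and its log2 fold change of 0.11 was not called. ITGB4, which pairs with ITGA6 in hemidesmosomes, and ITGB7 had log2 fold changes of 0.44 and 0.55 (SE 0.25 and 0.35), and were not called. Of the exon bases of ITGB7, 42.3% are shared with the coding gene ZNF740 on the opposite strand. The strand setting of the counting is not given, so some of its few reads may belong to ZNF740. The other β subunits, ITGB2, ITGB3, ITGB6 and ITGB8, were not tested in these 7 libraries, where each stayed under 0.8 CPM.

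Of the 4 collagen-binding α subunits ITGA10, ITGA2 and ITGA1 rose. ITGA1, the receptor chain that prefers collagen IV, lies on chromosome 5 from 52787916 to 52959209 (plus strand), next to ITGA2, and shares 2.7% of its exon bases with PELO on the same strand. It was at 702, 742 and 728 CPM in ΔNFATC4 and at 542, 643, 583 and 586 CPM in mock libraries. The groups lay apart, and the change was small: a log2 fold change of 0.30 (SE 0.06, adjusted p = 0.00146 from edgeR).

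ITGA2, which prefers fibrillar collagen, lies on chromosome 5 from 52989340 to 53094779 (plus strand). It was at 30.0, 31.4 and 35.9 CPM in ΔNFATC4 and at 17.1, 24.5, 19.7 and 18.3 CPM in mock libraries. No libraries overlapped (log2 fold change 0.71, SE 0.10, adjusted p = 8.58e-05 from edgeR). ITGA10, a collagen receptor chain of cartilage, was at 1.66, 1.51 and 1.58 CPM in ΔNFATC4 and at 0.694, 0.991, 0.659 and 0.790 CPM in mock libraries. It was also apart, at a low level (log2 fold change 1.01, SE 0.23, adjusted p = 0.00521 from edgeR). ITGA11, the fourth collagen-binding chain, had a log2 fold change of 0.23 and was not called.

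Of the RGD-binding α subunits ITGA5 and ITGA2B rose. ITGA5, which with β1 forms the main fibronectin receptor, lies on chromosome 12 from 54395261 to 54419266 (minus strand). It was at 84.5, 78.9 and 77.3 CPM in ΔNFATC4 and at 55.1, 52.2, 57.8 and 51.0 CPM in mock libraries. The groups were well apart (log2 fold change 0.57, SE 0.07, adjusted p = 4.21e-06 from edgeR). ITGA2B was at 0.931, 0.647 and 0.949 CPM in ΔNFATC4 and at 0.521, 0.129, 0.424 and 0.467 CPM in mock libraries. It had a mean of 18.7 counts in ΔNFATC4 and 9.25 in mock libraries, and its call (log2 fold change 1.10, SE 0.36, adjusted p = 0.0437 from edgeR) was lost with 6 of the 7 libraries left out in turn, at up to 0.163. ITGA8 (log2 fold change 0.28) was not called.

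Of the laminin-binding α subunits ITGA3 rose. ITGA3, the receptor chain for laminin-332 and laminin-511, was at 13.3, 12.2 and 14.0 CPM in ΔNFATC4 and at 10.8, 10.0, 10.97 and 9.58 CPM in mock libraries. The groups did not overlap (log2 fold change 0.35, SE 0.09, adjusted p = 0.0167 from edgeR), and the call was lost without ΔNFATC4 replicate 1 or 3 or mock replicate 4, at up to 0.0976. ITGA7 was at 698, 727 and 687 CPM in ΔNFATC4 and at 606, 614, 676 and 648 CPM in mock libraries. The groups of ITGA7 lay narrowly apart, without a call (log2 fold change 0.15, adjusted p = 0.0890 from edgeR). ITGA6 had a log2 fold change of 0.22.

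ITGA9 rose by little. It was at 498, 520.2 and 522 CPM in ΔNFATC4 and at 361, 459, 441 and 447 CPM in mock libraries. The groups lay apart (log2 fold change 0.27, SE 0.07, adjusted p = 0.0110 from edgeR), and the call was lost without ΔNFATC4 replicate 2 or 3, at up to 0.0717. Of the leukocyte subunits, ITGAX (0.518 to 0.648 CPM in ΔNFATC4 and 0.215 to 0.424 CPM in mock libraries) was not called, with a log2 fold change of 0.88 and an adjusted p of 0.114 from edgeR. ITGAM was at 0.283, 0.216 and 0.738 CPM in ΔNFATC4 and at 0.0434, 0, 0.188 and 0.0359 CPM in mock libraries, with a mean of 8.67 and 1.5 counts. It did not pass the filter on counts, and without that filter it was called higher (adjusted p = 0.00634 from edgeR). ITGAX and ITGAM stand beside the leukocyte marker sums given above, and their part was not tested.

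**Figure D3:**
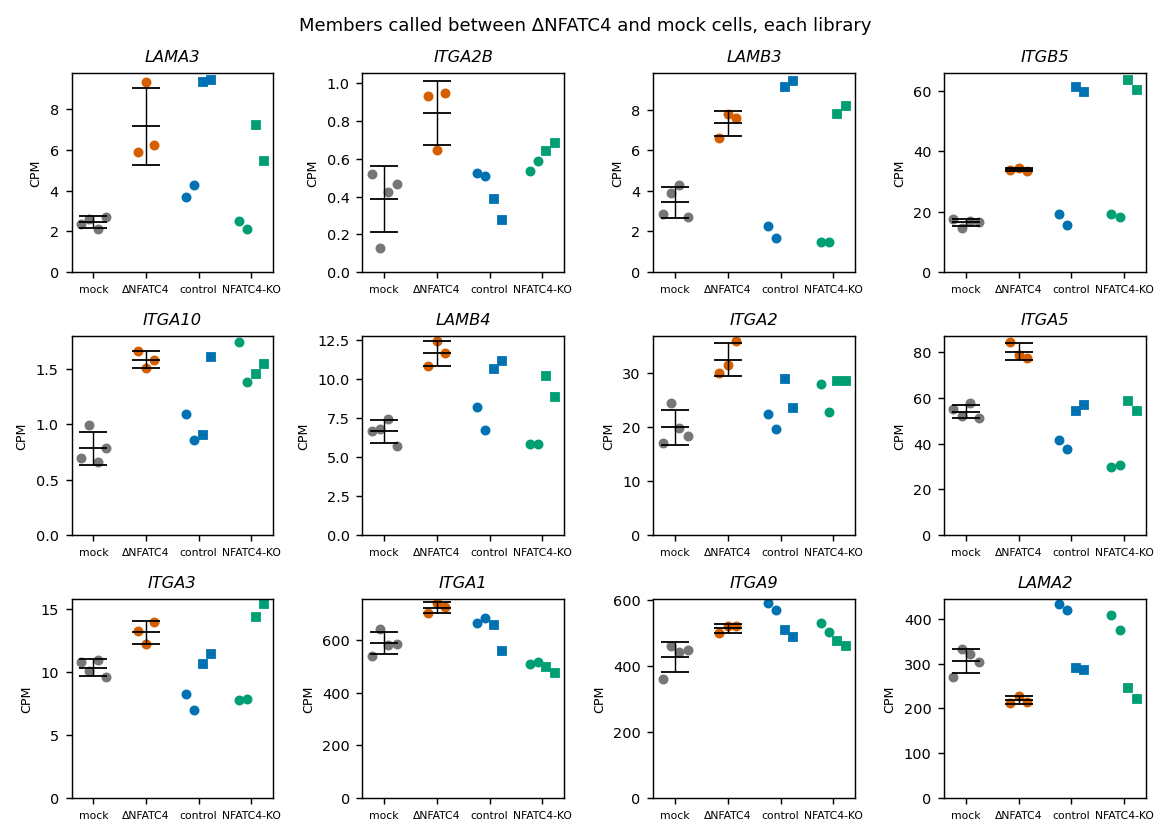
CPM in every library (points) for the 12 members called between ΔNFATC4 and mock cells, with the mean and SD drawn for these groups, and with squares for the libraries numbered 3 to 5 among those labelled control and NFATC4-KO. ΔNFATC4 points lie clear of the mock points in each panel, and for LAMB3 and ITGB5 the circles and squares lie far apart under both labels.

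The libraries labelled control and NFATC4-KO were next compared by number, numbers 1 and 2 (4 libraries) with numbers 3 to 5 (4 libraries), across both labels. These sets were seen in earlier results of the same data and are not groups the labels give, so the differences are a description with no test. At 2-fold or more without overlap, 4 members were higher in numbers 3 to 5 (LAMB3, ITGB5, ITGB3 and LAMA3) and 1 was lower (LAMC3), of 28 that passed the filter on counts. ITGB3 passed that filter only through numbers 3 to 5, so it could enter this count only as higher. Over all 13868 genes kept, 2.42% were higher and 3.35% lower by this rule. Of the 7 adrenocortical markers, 5 were lower in numbers 3 to 5 without overlap and 0 higher, against 20.0% and 17.6% of all genes. The sum of the 7 was 1486 to 2156 CPM in numbers 1 and 2 and 1053 to 1262 CPM in numbers 3 to 5. STAR, which brings cholesterol into mitochondria, was at 500.5 to 744 and at 211 to 308 CPM. NR5A1 and HSD3B2 overlapped, and HSD3B2 was higher on average in numbers 3 to 5 (37.1 against 30.7 CPM). Of the 4 fibroblast markers, 2 were lower in numbers 3 to 5 without overlap and 0 higher. The sum of the 4 was 12.0 to 12.7 CPM in numbers 1 and 2 and 4.57 to 6.78 CPM in numbers 3 to 5. Of this, the collagen gene COL1A1 held 11.5 and 5.65 CPM on average. COL1A2, DCN and PDGFRB were each under 1 CPM in all these libraries. COL1A2 was higher on average in numbers 3 to 5 (0.0981 against 0.0768 CPM). The part of these shifts in the members' differences was not tested.

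LAMB3 was at 2.27 and 1.68 CPM in control numbers 1 and 2, at 1.502 and 1.47 in NFATC4-KO numbers 1 and 2, at 9.13 and 9.44 in control numbers 3 and 4, and at 7.81 and 8.19 in NFATC4-KO numbers 3 and 5. The difference of mean log2(CPM + 0.5) was 2.05, which is 4.13-fold, and the mock libraries (2.73 to 4.28 CPM) lay between the sets and nearer to numbers 1 and 2. ITGB5 was at 19.2, 15.5, 19.2 and 18.3 CPM in control and NFATC4-KO numbers 1 and 2, and at 61.3, 59.6, 63.5 and 60.1 CPM in the libraries numbered 3 to 5. That difference was 1.74 on the log2 scale, and the ΔNFATC4 libraries with 33.5 to 34.6 CPM lay between.

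LAMA3 was at 3.69, 4.29, 2.52 and 2.10 CPM in control and NFATC4-KO numbers 1 and 2, and at 9.35, 9.44, 7.26 and 5.49 CPM in the others. Its log2 difference was 1.21, and in each set the libraries labelled NFATC4-KO were below those labelled control. ITGB3, which pairs with αv or αIIb, was at 0.162, 0.312, 0.291 and 0.293 CPM in numbers 1 and 2 and at 1.55, 2.25, 1.84 and 1.11 CPM in numbers 3 to 5, a log2 difference of 1.49. Of its exon bases, 33.2% are shared with another coding gene on the same strand, ENSG00000259753, so some of these reads cannot be placed.

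LAMC3, a laminin γ chain, went the other way. It was at 39.0, 39.9, 29.8 and 28.5 CPM in control and NFATC4-KO numbers 1 and 2, and at 13.4, 13.1, 15.2 and 12.6 CPM in the others. Its log2 difference was −1.29. The mock libraries lay with numbers 1 and 2, at 27.9 to 34.4 CPM.

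Below 2-fold, 5 further members that passed the filter were higher in numbers 3 to 5 without overlap: ITGA3 (0.70), ITGA5 (0.69), LAMB4 (0.59), LAMA5 (0.36) and LAMB1 (0.24), all on the log2 scale. A further 3 were lower without overlap: LAMA2 (−0.66), ITGA11 (−0.50) and LAMC1 (−0.49). Over all genes, 17.6% were higher and 20.0% lower without overlap, whether past 2-fold or below it. By that rule the 4 higher and 1 lower members past 2-fold count beside the 5 and 3 named here, of 28. ITGA1 overlapped between the sets (log2 difference −0.12), as did ITGB1 (0.01) and ITGA7 (−0.12).

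The 5 members past 2-fold had the same direction within each label. Between the sets, the log2 difference was 1.99 for LAMB3, 1.78 for ITGB5, 1.69 for ITGB3, 1.14 for LAMA3 and −1.54 for LAMC3 among the libraries labelled control. Among those labelled NFATC4-KO it was 2.10, 1.69, 1.29, 1.28 and −1.05 in the same order. The mock mean was nearer to numbers 1 and 2 for all 5, as it was for 749 of the 800 genes past the same rule.

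LAMB3, ITGB5 and LAMA3 had differences in the same direction in both comparisons, with ΔNFATC4 against mock and numbers 3 to 5 against 1 and 2 at 1.10 and 2.05, 1.05 and 1.74, and 1.54 and 1.21. For LAMA2 the values were −0.49 and −0.66. ITGA5, ITGA3, LAMB4, ITGA2 and ITGA10, also called in ΔNFATC4 cells, were above 0 in both. The other called members had opposite signs: ITGA1 (0.30 and −0.12), ITGA9 (0.27 and −0.18) and ITGA2B (1.10 and −0.08). The share of all genes with the same direction in both was not computed. LAMC3 differed only by 0.10 in ΔNFATC4 cells and by −1.29 between the sets. Endogenous and plasmid NFATC4 together were higher in ΔNFATC4 than in mock cells, whereas NFATC4 was lower in numbers 3 to 5 (44.8 to 57.5 CPM) than in numbers 1 and 2 (85.4 to 114 CPM).

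**Figure D4:**
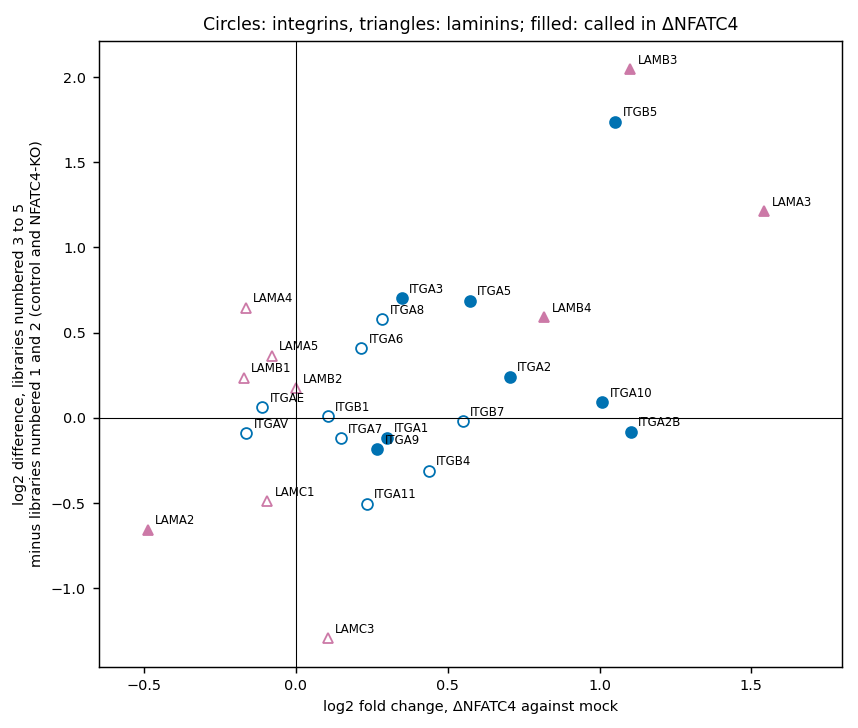
Log2 fold change of ΔNFATC4 against mock cells (horizontal) and log2 difference of libraries numbered 3 to 5 minus those numbered 1 and 2 (vertical), 1 point per member with values in both, filled where called in ΔNFATC4 cells. LAMB3, ITGB5 and LAMA3 lie at the upper right, LAMA2 at the lower left, and LAMC3 lowest at −1.29 with a horizontal value near 0.

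By the labels, no member was called between NFATC4-KO and control at an adjusted p under 0.05. The edgeR test of these 8 libraries called 0 of 28 tested members and 0 of all 13868 genes (0%) in either direction. At an unadjusted p under 0.05 it gave 1257 genes and 2 members, ITGA1 and ITGA8, both lower under the NFATC4-KO label. DESeq2 called 167 genes and limma-voom 26.

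ITGA1 was the member with the smallest p. It was at 667, 684, 659.5 and 558 CPM in control numbers 1 to 4 and at 509, 519, 497 and 477 CPM in NFATC4-KO numbers 1, 2, 3 and 5. All 4 libraries labelled NFATC4-KO lay below all 4 labelled control, with a log2 fold change of −0.36 (SE 0.07, adjusted p = 0.244 from edgeR). Over the alternatives the adjusted p ran from 3.52e-05 (with the library set as a term and without control replicate 3) to 0.702 (without NFATC4-KO replicate 5): ITGA1 was called lower by DESeq2, by limma-voom, in the fit of all 15 libraries, with the replicate number as a block (log2 fold change −0.40, adjusted p = 0.0142 from edgeR) and with the library set as a term. No other member was lower without overlap, against 3.15% of all genes. ITGA2B was higher without overlap, against 3.74%, with an adjusted p of 0.671 from edgeR.

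With the set (numbers 1 and 2, or 3 to 5) as a second term, 6 of 28 members were lower under the NFATC4-KO label and 0 were higher, where over all genes 6.04% were lower and 4.39% higher. The set was found in these same data and is not given by the labels. The adjusted p values of this fit are therefore conditional on that split. The 6 were ITGA1, ITGA8, LAMA3, LAMA4, LAMA2 and LAMC1. ITGA1 had a log2 fold change of −0.36 (SE 0.05, adjusted p = 0.000412 from edgeR). ITGA8, an RGD-binding chain whose ligand is nephronectin, was at 8.22, 8.002, 14.3 and 14.6 CPM in control numbers 1 to 4 and at 6.74, 6.58, 9.22 and 8.19 CPM in NFATC4-KO numbers 1, 2, 3 and 5. It was lower under the NFATC4-KO label in both sets, by more in numbers 3 to 5 (log2 fold change −0.53, SE 0.10, adjusted p = 0.00340 from edgeR). Whether the 2 sets differed in this was not tested.

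LAMA3, with the values given above, had a log2 fold change of −0.65 in this fit (SE 0.13, adjusted p = 0.00348 from edgeR). LAMA4, an α chain of vessel laminins, was at 1.90, 1.56, 3.96 and 3.07 CPM in control numbers 1 to 4 and at 1.502, 0.796, 2.09 and 1.37 CPM in NFATC4-KO numbers 1, 2, 3 and 5. Its log2 fold change was −0.86 (SE 0.21, adjusted p = 0.0154 from edgeR). LAMA2 and LAMC1 were lower by less. LAMA2 was at 433, 419, 289.8 and 285 CPM in control numbers 1 to 4 and at 409, 374, 246 and 221 CPM in NFATC4-KO numbers 1, 2, 3 and 5 (log2 fold change −0.21, adjusted p = 0.0172 from edgeR). LAMC1 was at 444, 413, 345 and 331 CPM and at 428, 388, 276 and 248 CPM in the same order (−0.22, adjusted p = 0.0294 from edgeR). Both were lower under the NFATC4-KO label on average in each set.

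With the replicate number as a block instead, which leaves the libraries numbered 1 to 3, only ITGA1 of the 6 kept its call. The adjusted p from edgeR was then 0.134 for ITGA8, 0.0982 for LAMA3, 0.130 for LAMA4, 0.261 for LAMA2 and 0.325 for LAMC1, all with log2 fold changes under 0.

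Among the members called in ΔNFATC4 cells, ITGA1 and LAMA3 were thus higher there and lower under the NFATC4-KO label in the fit with the set, and LAMA2 was lower in both. With each of the 8 libraries left out in turn, this fit called ITGA1, ITGA8 and LAMA3 lower every time, and 3 to 8 members in all: 3 without NFATC4-KO replicate 5, 4 without control replicate 4 and 8 without control replicate 3. Since NFATC4 RNA did not separate the labels, the direction is that between libraries so labelled.

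**Figure D5:**
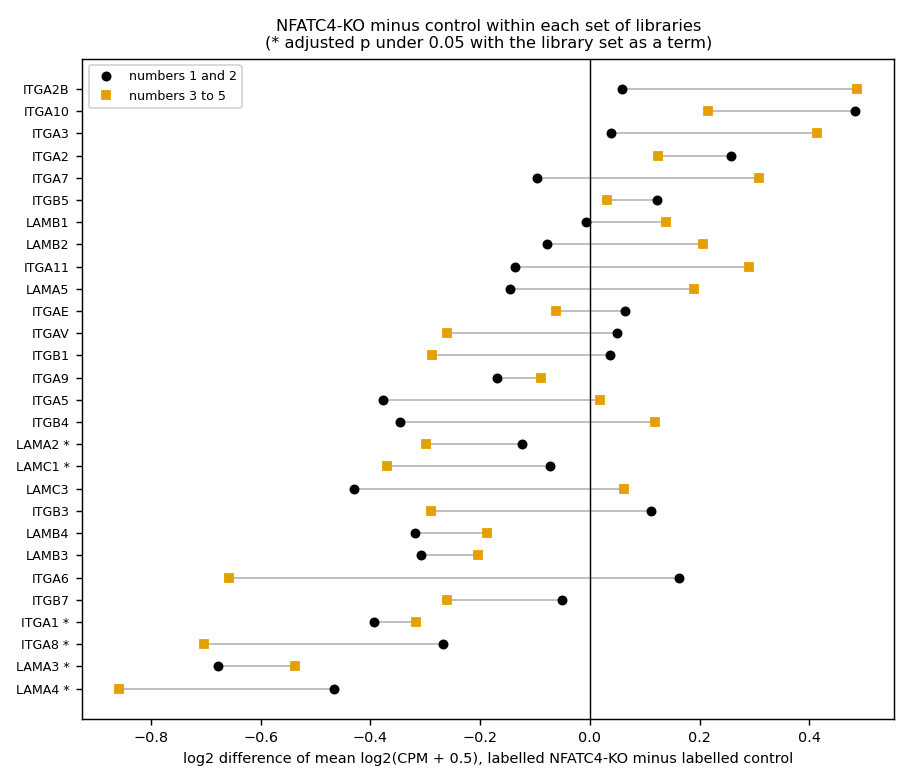
Difference of mean log2(CPM + 0.5) between libraries labelled NFATC4-KO and control, within numbers 1 and 2 (circles) and within numbers 3 to 5 (squares), for the 28 tested members, with a star for an adjusted p under 0.05 in the fit with the set. ITGA1 lies at −0.39 and −0.32 and LAMA3 at −0.68 and −0.54, while ITGA6 has 0.16 in one set and −0.66 in the other.

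The genes around these receptors were examined as 3 lists. Of 27 tested integrin adaptors and signalling genes, 6 rose and 0 fell in ΔNFATC4 cells (median log2 fold change 0.08), where 7.69% of all genes rose and 6.10% fell. In the fit of all 15 libraries with 4 means, 1 of the 27 rose and 0 fell, against 2.27% and 1.42% of all genes. The largest rises were in genes of low level: LIMS2, a partner of integrin-linked kinase, was at 0.604 to 0.809 CPM in ΔNFATC4 and at 0 to 0.172 CPM in mock libraries. FERMT3, the kindlin of blood cells, was at 1.51 to 2.58 and 0.388 to 0.424 CPM, with a log2 fold change of 2.25. LIMS2 and FERMT3 passed the filter on counts only through the ΔNFATC4 libraries. At these mock levels they could be called only as rises. FERMT3 too stands beside the higher leukocyte marker sum in ΔNFATC4 cells, whose part was not tested.

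Of 15 tested basement membrane partners and laminin receptors, 5 rose and 2 fell (median −0.02), and in the 15-library fit 2 rose and 0 fell. NID1, which links laminin to collagen IV, was at 238 to 312 CPM in ΔNFATC4 and at 142 to 208 CPM in mock libraries (log2 fold change 0.66), and the collagen IV chain COL4A1 rose by 0.48 on the log2 scale. NID2 and COL4A4 fell, with log2 fold changes of −0.39 and −0.71. Of 13 tested other integrin ligands, 5 rose and 1 fell (median 0.18), and in the 15-library fit 2 rose and 1 fell. FN1, fibronectin, the ligand of ITGA5, was at 53.8 to 58.6 CPM in ΔNFATC4 and at 11.5 to 17.8 CPM in mock libraries (log2 fold change 1.88). ICAM2, a ligand of leukocyte integrins, was at 0.769 to 1.05 and 0 to 0.179 CPM. It too passed the filter on counts only through the ΔNFATC4 libraries. NPNT, nephronectin, the ligand of ITGA8, fell (−0.59).

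Between the numbered sets, 3 of 25 adaptors were higher by the 2-fold rule and 0 lower, 2 of 15 basement membrane partners were higher and 3 lower, and 5 of 11 other ligands were higher and 0 lower, against 2.42% higher and 3.35% lower of all genes. COL4A5, among those lower, had no counts in numbers 3 to 5 and passed the filter only through numbers 1 and 2. FN1 was at 9.18 to 12.4 CPM in numbers 1 and 2 and at 62.8 to 117 CPM in numbers 3 to 5, a log2 difference of 2.91. NID1 was at 100.5 to 133 and at 337 to 460 CPM. With the set as a term, 5 of 25 adaptors, 0 of 15 basement membrane partners and 4 of 11 other ligands were lower under the NFATC4-KO label, and 0 of any list were higher, against 6.04% lower and 4.39% higher of all genes.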

How the data were processed

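Per the paper's methods, the authors made stranded mRNA libraries, trimmed reads with fastp, used STAR with GRCh38.p13 for alignment and featureCounts for counting per gene. Versions, strand and multi-mapping settings are not given in the sources used here. The authors deposited raw, unnormalized counts of 21493 genes for each library, and 21400 genes matched a symbol. The authors tested genes with DESeq2.

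From the counts, the CPM printed were computed with TMM factors of all 15 libraries. The quasi-likelihood tests (edgeR 4.0.16 in R 4.3.3, robust, with their own TMM factors, genes kept by filterByExpr) used the 2 groups compared only, with Benjamini-Hochberg adjustment over all genes tested. A standard error is the log2 fold change divided by the root of its F statistic. DESeq2 1.42.0 and limma 3.58.1 served as alternatives. The 2-group edgeR fits were also run on simulated counts. These held no numbered sets, so that check does not cover the fits with more terms. Lengths and overlaps come from GENCODE v44 on GRCh38, and promoters from RefSeq.

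The results of 1 member are not reported here. Values per library are given for those called, those 2-fold apart between the numbered sets, ITGA1 and the highest of each role (there for ΔNFATC4 and mock). Of each other list, up to 2 genes that rose and 2 that fell most are named by range or fold change. Per-library values of LAMB1, ITGAV, ITGA8, LAMA4 and ITGAM, and those of LAMA2 and LAMC1 by label, were added after they had been seen. Members, lists and sets were chosen with earlier results of these data known.

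Same-numbered libraries labelled control and NFATC4-KO deviated together from their group means (correlations 0.85, 0.82 and 0.74 for numbers 1, 2 and 3). The main test did not pair them, and the replicate number as a block was an alternative only. The numbered sets alone would give such correlations. Pairs within groups differed by more than sampling noise, so no library was counted as a duplicate.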

Additional observations from a re-analysis of the deposited data

Results flagged for a closer look

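In groups of 4 libraries, 88 pairs of a member and a group were checked for a library far from the other 3, by Dixon's ratio of gap to range at the 95% level. Chance flags about 1 in 20, and 4 were found. LAMB1 was at 442 CPM in mock replicate 1 and at 511 to 519 CPM in the other mock libraries. LAMC1 was at 327 CPM in mock replicate 1 and at 400.2 to 414 CPM in the others. Mock replicate 1 was the lowest mock library for 15 of the 28 tested members. ITGA2 was at 22.7 CPM in NFATC4-KO replicate 2 and at 28.0 to 28.5 CPM in the others with that label. ITGB8 was at 1.29 CPM in control replicate 3 and at 0.273 to 0.446 CPM in the others labelled control.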

How the results depend on the processing

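Of the 11 higher members in ΔNFATC4 cells, 4 were called in the fit of all 15 libraries with 4 means and 5 with the fold cutoff, and leaving out each library gave 8 to 11. With no filter it was 12, with ITGAM. Without ΔNFATC4 replicate 3, ITGA2B, ITGA9 and ITGA3 were not called. For the 1 lower member the count was 2 with no filter, 2 by limma-voom and 2 with 6 means (LAMA2 and LAMB1 each time), 0 with 4 means and 0 with the fold cutoff, and 1 to 3 with a library left out. With the replicate block 11 were higher and 1 lower, and same-numbered ΔNFATC4 and mock libraries shared only a number (correlations 0.16, −0.15 and 0.04). For NFATC4-KO against control, 0 lower members became 1 (ITGA1) by DESeq2, by limma-voom, with all 15 libraries and with the replicate block, and 6 with the library set as a term. It was 0 with each library left out of the fit without that term. Leaving out a library with the term, chosen after seeing the data, gave 3, 4, 5, 6 or 8 lower members, and 1 higher (ITGA2) without control replicate 3 and 0 otherwise. The 5 members past 2-fold between numbered sets stayed 5 with each library left out. No direction of a called member reversed under the alternatives run. Of the values under alternatives of members called in ΔNFATC4 cells, 170 kept their side of the threshold and 20 lost the call. For NFATC4-KO, 98 kept their side and 51 gained a call. The NFATC4-KO values were those of the 6 members picked because the fit with the set called them. Most of the 51 came from that fit, whole or with a library left out. Members under 1 CPM, such as ITGA2B, rest on few counts, and depth limits them.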
